A study of Homo sapiens with 12 samples.

Results

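The genes described here encode the KMT2 and SETD1 family, whose members other than KMT2E methylate lysine 4 of histone H3 (H3K4) at promoters and enhancers. The 7 members, KMT2A, KMT2B, KMT2C, KMT2D, KMT2E, SETD1A and SETD1B, were found by symbol in the deposited count tables. All 7 were among the 27825 genes of the antagonist table, and 1 of them, SETD1B, was among the genes of the agonist table, which lists 904 selected genes (27827 genes were in either table). RNA was sequenced from 12 libraries of U937, an established human pro-monocytic leukaemia line. In the antagonist set, 3 libraries came from cells given a LILRB3 antagonist antibody and 3 from cells given nonspecific IgG. In the agonist set, 3 came from cells given a LILRB3 agonist antibody and 3 from their own IgG controls. Per the labels every group, controls included, was pretreated with interferon gamma at 50 ng/mL and then kept with antibody for 72 hours at a concentration written as 5 mg/mL, a unit left here as written. The study thus asked how each antibody to LILRB3, an inhibitory receptor of myeloid cells, changed the transcriptome of interferon-treated cells of 1 line. The family was selected on measured values, since KMT2D was seen to rise with the antagonist, so the members' values with either antibody are descriptions and carry no p-value. These are bulk samples, in which fewer cells of a kind and less RNA per cell cannot be told apart.

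H3K4 methylation marks active genes: trimethylation sits at promoters and monomethylation at enhancers. SETD1A and SETD1B are known for much of the bulk trimethylation, KMT2A and KMT2B act at selected promoters including the HOX genes and bind menin, and KMT2C and KMT2D monomethylate enhancers. KMT2E has a diverged SET domain and is not thought to methylate H3K4 itself. All but KMT2E work within complexes built on a shared core of WDR5, RBBP5, ASH2L and DPY30. In blood cells KMT2A is the gene broken in KMT2A-rearranged leukaemias, and KMT2D is a recurrent target of inactivating mutation in lymphoma.

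The promoter windows of KMT2D and KMT2B, which were among the members with the largest rises under the antagonist, and of KMT2E, which rose least, are shown to set the genes beside each other. They are RefSeq windows of 300 bases on GRCh38.p14, 5′ to 3′ on the gene's strand, with each GGGCGG or its reverse complement CCGCCC in capitals. KMT2D lies at chr12:49060745-49061044 (minus strand), KMT2B at chr19:35717753-35718052 (plus strand) and KMT2E at chr7:105013955-105014254 (plus strand).
KMT2D: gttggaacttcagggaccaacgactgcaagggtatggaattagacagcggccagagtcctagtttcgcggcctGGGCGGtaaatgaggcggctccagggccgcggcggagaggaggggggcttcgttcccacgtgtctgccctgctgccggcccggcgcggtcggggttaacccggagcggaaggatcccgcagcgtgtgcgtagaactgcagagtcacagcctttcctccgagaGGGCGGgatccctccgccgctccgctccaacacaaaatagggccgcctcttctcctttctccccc
KMT2B: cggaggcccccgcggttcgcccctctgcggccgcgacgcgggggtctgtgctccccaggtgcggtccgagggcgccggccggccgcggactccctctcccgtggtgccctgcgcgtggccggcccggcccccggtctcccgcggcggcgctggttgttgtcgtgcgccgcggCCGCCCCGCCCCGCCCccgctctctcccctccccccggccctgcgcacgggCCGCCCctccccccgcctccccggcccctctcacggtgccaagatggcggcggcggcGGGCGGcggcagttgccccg
KMT2E: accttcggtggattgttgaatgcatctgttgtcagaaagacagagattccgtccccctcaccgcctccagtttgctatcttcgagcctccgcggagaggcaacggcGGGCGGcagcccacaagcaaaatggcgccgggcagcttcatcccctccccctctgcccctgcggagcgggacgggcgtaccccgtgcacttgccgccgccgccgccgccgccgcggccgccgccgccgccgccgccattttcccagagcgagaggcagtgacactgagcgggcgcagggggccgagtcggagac
GGGCGG, the box bound by SP family factors, was matched 2 times in the KMT2D window, 5 times in that of KMT2B and 1 time in that of KMT2E, counting both strands and overlapping matches. The windows of KMT2C, SETD1A and KMT2A held 15, 4 and 3 matches, so the counts did not follow the order of the rises. Of all 35116 RefSeq promoter windows of this length, 45.0% held at least 1 match. CACGTG, the E-box bound by MYC and USF factors, had 1 match in the KMT2D window and 0 in the windows of the other 5 matched members, against 7.26% of all windows. The CpG counts of the 6 windows were between 27 (KMT2D) and 56 (KMT2C), with a median of 14 over all windows. SETD1B was not matched in the promoter table.

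In the antagonist set all 7 members were higher with the antibody than with IgG. The rises ran from 2.28-fold for KMT2D to 1.13-fold for KMT2E, and in all 7 the 3 antagonist libraries lay above the 3 IgG libraries. A gene is said to be called, to rise or to fall where edgeR's quasi-likelihood test gave a Benjamini-Hochberg adjusted p under 0.05 over all tested genes, with libraries scaled by the trimmed mean of M-values (TMM). By that rule, over 13778 genes, 7 members were called higher and 0 lower. These calls are descriptions only, since the family was selected on these values. Over all tested genes 36.1% were called in either direction, 15.6% higher and 20.5% lower, and groups did not overlap upward for 21.9%. With library totals in place of TMM that balance turned, to 21.9% higher and 11.6% lower, with all 7 members still called higher. The family's median log2 fold change was 0.51, beside -0.01 for all tested genes. The 7 genes together took 717 ± 48 CPM (counts scaled to a common library size) by library total with IgG and 1303 ± 34 with the antagonist (SD, n = 3 per group, without TMM scaling).

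**Figure D1:**
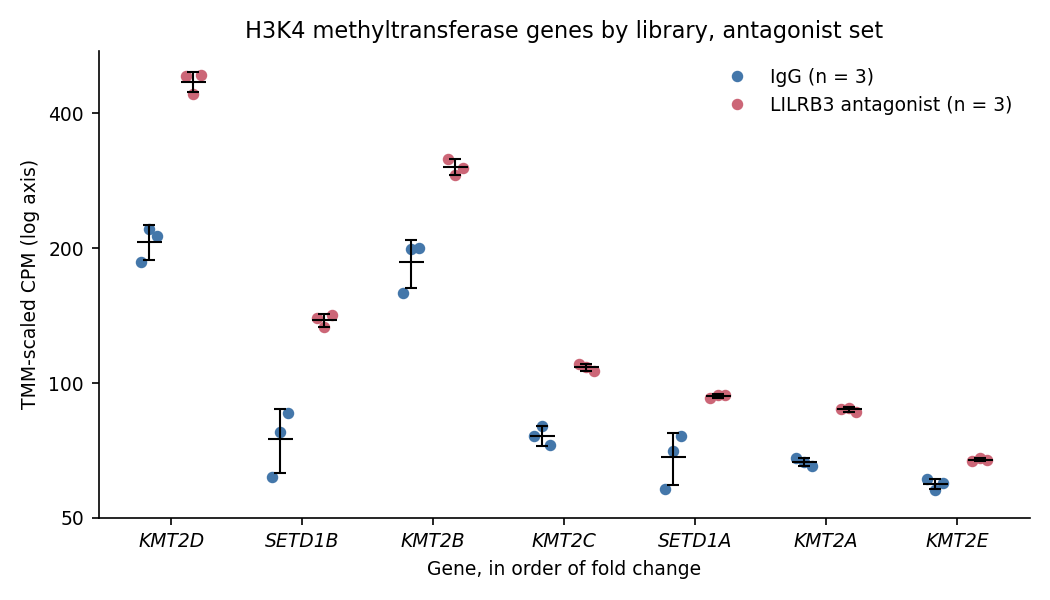
TMM-scaled CPM (log axis) of the 7 genes in each library of the antagonist set, with 3 points per group and black bars for the mean ± SD. The antagonist points lie above the IgG points for every gene, with the widest gap for KMT2D (207 to 471 CPM on average) and the narrowest for KMT2E (59.6 to 67.4 CPM).

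KMT2D (chromosome 12, 49018978 to 49060794, GRCh38.p14, minus strand), an enhancer methyltransferase with the longest transcript of the family, had 3464, 3722 and 3481 reads in the IgG libraries and 8462, 8009 and 8833 with the antagonist. On the TMM-scaled CPM scale these were 186, 221 and 213 with IgG and 483, 442 and 487 with the antagonist. Every antagonist library was far above every IgG library, with no overlap, and the log2 fold change was 1.19 ± 0.07 (SE). Among the 4562 tested genes with an IgG mean of at least 50 CPM, 0 had a larger log2 fold change than KMT2D. Over all levels 64 tested genes did, each with an IgG mean of 4.60 CPM or less. These ranks are descriptions only, since the family was selected on the rise of KMT2D.

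KMT2C (chromosome 7, 152134925 to 152436003), the other enhancer methyltransferase and the closest relative of KMT2D, rose less. Its levels were 76.0, 80.3 and 72.7 CPM with IgG and 110, 108 and 107 CPM with the antagonist, a log2 fold change of 0.51 ± 0.06. Within each library the ratio of KMT2D reads to KMT2C reads does not depend on scaling. It was 2.45, 2.75 and 2.93 in the IgG libraries and 4.39, 4.08 and 4.56 in the antagonist libraries. KMT2D's part of the pair was thus larger in every antagonist library than in any IgG library. The ratio is not freed of trends with transcript length or GC content (59.1% for KMT2D, 45.0% for KMT2C). With those trends removed the log2 fold changes were 0.72 for KMT2D and 0.25 for KMT2C. Part of KMT2C is copied in BAGE genes, and 8.07% of the 50-base windows of its longest coding transcript also occur in transcripts of other genes. BAGE2 and BAGE5 had 0 counts in all 6 libraries.

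KMT2B (chromosome 19, 35718003 to 35738878) had the highest level per length of the family and the third largest rise. It had 159, 199 and 200 CPM with IgG and 316, 292 and 303 CPM with the antagonist, a log2 fold change of 0.71 ± 0.08. KMT2A (chromosome 11, 118436492 to 118526832), its menin-binding relative, had 68.0, 66.8 and 65.4 CPM with IgG and 87.7, 87.9 and 86.2 CPM with the antagonist, a log2 fold change of 0.39 ± 0.06. The groups did not overlap for either gene, and KMT2A varied little within its groups (SD 1.32 and 0.92 CPM). The ratio of KMT2B to KMT2A reads was 2.34, 2.98 and 3.06 with IgG and 3.61, 3.32 and 3.51 with the antagonist. This ratio too is not freed of trends with length or GC content (63.5% for KMT2B, 46.9% for KMT2A). With those trends removed the log2 fold changes were 0.34 for KMT2B and 0.11 for KMT2A. For KMT2A, 21.9% of 50-base windows are shared with other annotated transcripts, mostly with the overlapping model AP001267.5, which was not analysed here.

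SETD1B (chromosome 12, 121790155 to 121832656) and SETD1A (chromosome 16, 30957754 to 30984664) are the catalytic subunits of the SETD1 complexes. SETD1B had 61.8, 77.7 and 85.8 CPM with IgG and 139, 133 and 142 CPM with the antagonist, a log2 fold change of 0.88 ± 0.10. SETD1A had 58.1, 70.6 and 76.0 CPM with IgG and 92.6, 94.0 and 94.1 CPM with the antagonist, a log2 fold change of 0.46 ± 0.08. With IgG the genes were counted nearly alike, with 1.06, 1.10 and 1.13 SETD1B reads for each SETD1A read. With the antagonist that ratio was between 1.42 and 1.51, above every IgG library. No 50-base window of the longest coding transcript of either gene was found in another gene's transcripts.

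KMT2E (chromosome 7, 105014205 to 105115019), the diverged member, changed least. Its levels were 61.0, 57.8 and 59.8 CPM with IgG and 67.1, 67.9 and 67.2 CPM with the antagonist, a log2 fold change of 0.18 ± 0.06. The groups did not overlap, but the gene was not called in 7 of 12 other settings, which were the fit with no filter on low counts (0.17, with 25.4% of genes called), the fit without length and GC trends (0.12) and those omitting IgG library 2 or 3 or antagonist library 1, 2 or 3 (0.17 to 0.19).

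Levels can be compared between genes only per length. Per kilobase of the longest coding transcript in GENCODE release 29, the order with IgG was KMT2B (21.96 ± 2.73 CPM per kilobase, SD, n = 3), KMT2D (10.6 ± 0.9), SETD1A (10.6 ± 1.4), SETD1B (9.18 ± 1.49), KMT2E (8.66 ± 0.24), KMT2C (4.53 ± 0.23) and KMT2A (4.01 ± 0.08). KMT2D, SETD1A, SETD1B and KMT2E did not differ from their neighbours in that order beyond the spread, whereas KMT2B lay above and KMT2C and then KMT2A below. The levels were not corrected for windows shared with other transcripts (21.9% for KMT2A, 8.07% for KMT2C), so the order of KMT2C and KMT2A is uncertain. With the antagonist KMT2D stood alone in second place, at 24.2 ± 1.3 CPM per kilobase, between KMT2B (35.9 ± 1.4) and SETD1B (16.9 ± 0.5), followed by SETD1A (14.5 ± 0.1), KMT2E (9.81 ± 0.07), KMT2C (6.42 ± 0.10) and KMT2A (5.25 ± 0.06). Of all reads counted to the 7 genes, KMT2D took 28.0% ± 0.5 with IgG and 37.1% ± 0.9 with the antagonist, while KMT2E went from 8.11% ± 0.87 to 5.32% ± 0.20.

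The 3 members that rose most have GC-rich transcripts, and all 7 have long ones. The longest coding transcripts are between 6451 bases (SETD1A) and 19419 bases (KMT2D). GC content was 59.1% for KMT2D, 61.3% for SETD1B, 62.3% for SETD1A and 63.5% for KMT2B, and 43.2% for KMT2E, 45.0% for KMT2C and 46.9% for KMT2A. Of the 1797 tested genes at least as long as SETD1A, 544 were called higher and 150 lower. Their median log2 fold change was 0.12, beside -0.04 for the 11322 shorter genes. Among the 120 of these long genes with a GC content of at least 59%, a split chosen after the values were seen, 67 were higher and 2 lower and the median was 0.44. In that class 1 gene exceeded KMT2D, 4 exceeded SETD1B, 20 exceeded KMT2B and 56 exceeded SETD1A. The members themselves are included in all these classes, and are counted where 1 member exceeds another. KMT2D itself lies close to the split. Among the 479 long genes from 48% up to 59% GC, 246 were higher and 10 lower, the median was 0.27 and 4 exceeded KMT2D. Among the 1198 long genes below 48% GC the median was 0.04, and 51 exceeded KMT2C, 123 exceeded KMT2A and 349 exceeded KMT2E.

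With the trends of expression on length and GC content removed library by library, all 7 members were still higher and 5 were called, where 41.1% of 13119 genes were called and 14.4% were called higher. KMT2D was then at 0.72 ± 0.04, SETD1B at 0.54 ± 0.05, KMT2B at 0.34 ± 0.04, KMT2C at 0.25 ± 0.05 and SETD1A at 0.15 ± 0.05. KMT2A (0.11 ± 0.05) and KMT2E (0.12 ± 0.05) were not called. By the chi-square of counts over genes per degree of freedom, IgG library 1 was farther from its group (11.03 and 19.9) than the remaining pair was from each other (4.54), and it was the lowest IgG library for KMT2D, KMT2B, SETD1A and SETD1B but not for KMT2A, KMT2C or KMT2E. Without it the log2 fold changes were 1.14 for KMT2D, 0.78 for SETD1B, 0.63 for KMT2B and 0.38 for SETD1A, with all 7 members called.

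**Figure D2:**
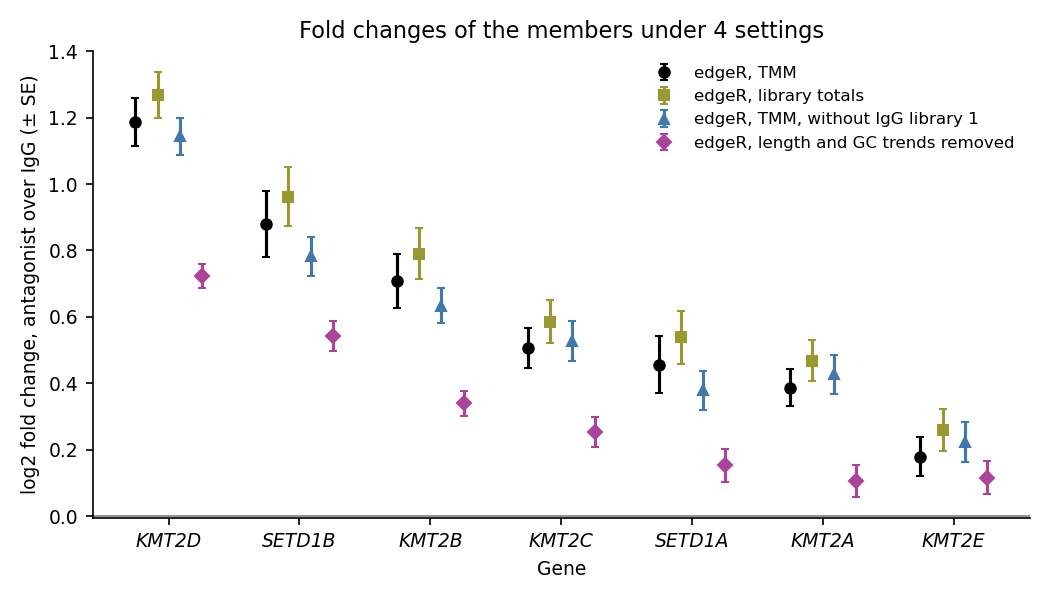
Log2 fold changes of antagonist over IgG (± SE) for the 7 genes under 4 settings of the edgeR fit: TMM scaling, library totals, TMM without IgG library 1, and removal of length and GC trends. All values are above 0, and KMT2D is highest under each setting (1.19, 1.27, 1.14 and 0.72).

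**Figure D3:**
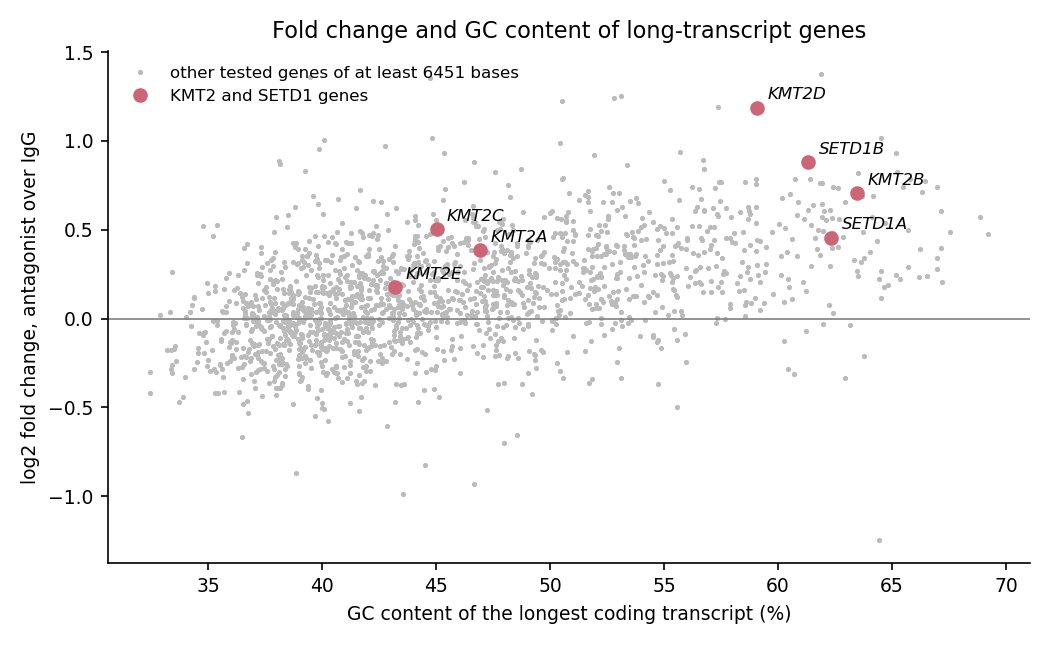
Log2 fold change of antagonist over IgG against the GC content of the longest coding transcript, for the 1797 tested genes of at least 6451 bases (grey) with the 7 members in red. The cloud rises with GC content, KMT2D lies near its upper edge at 59.1% GC, and SETD1A lies within it at 62.3% GC.

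Genes whose 6-library pattern was most like that of KMT2D were sought among the 4525 other tested genes with a mean of at least 50 CPM, by the root mean square difference of log2 CPM from the IgG mean. The nearest, given with that distance, were the basement membrane proteoglycan HSPG2 (0.16), the corepressor RERE (0.19), SETD1B (0.23), the ubiquitin ligase HECTD4 (0.23) and SOGA1 (0.24). HSPG2 went from 464 ± 92 to 937.5 ± 66.1 CPM, RERE from 106 ± 19 to 203 ± 4 CPM and HECTD4 from 77.0 ± 10.6 to 140 ± 3 CPM. These 5 genes have transcripts of 8026 to 15759 bases with a GC content of 53.4% to 64.5%. Removing length and GC trends left HSPG2 at 0.55, HECTD4 at 0.51 and SOGA1 at 0.46 on the log2 scale.

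As a group the pathway partners, which here include H3K4 demethylases and the cofactor RCOR1 beside complex subunits, showed no shared direction. Of 23 tested genes in 5 lists, 4 were higher, 6 were lower and 13 did not pass. Their median log2 fold change was 0.01, beside -0.01 and 36.1% called over all genes. The balance depended on scaling, with 6 higher and 3 lower by library totals and 2 higher and 7 lower with length and GC trends removed. Without antagonist library 1 the counts were 2 higher and 4 lower, and without antagonist library 3 they were 2 and 3. In the shared core 2 of 4 genes fell and 0 rose, where 20.5% of all tested genes fell. DPY30, which stimulates the catalytic core, went from 45.5 ± 5.3 to 32.9 ± 1.8 CPM (-0.47 ± 0.09, adjusted p = 0.0019 by edgeR), and ASH2L, which contacts it, changed by -0.21 ± 0.07 (adjusted p = 0.0249). WDR5, the WD40 scaffold, was at 0.03 ± 0.06 and RBBP5 at 0.01 ± 0.10. ASH2L no longer passed with library totals (-0.13), with DESeq2 (-0.19), or with IgG library 2 (-0.22) or antagonist library 1 (-0.18) or 3 (-0.19) left out, and DPY30 was at -0.20 with length and GC trends removed.

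Complex-specific subunits split in direction. In the SETD1 complex HCFC1, the host cell factor that joins SETD1 and KMT2A complexes to chromatin, rose from 361 ± 57 to 563 ± 35 CPM (0.64 ± 0.10, adjusted p = 0.0013 by edgeR). WDR82, which ties SETD1 to RNA polymerase II, fell (-0.21 ± 0.06), while the CpG-binding subunit CXXC1 was at 0.13 ± 0.08 and BOD1L1 at 0.15 ± 0.06 without passing. Of the KMT2A and KMT2B partners PSIP1, the chromatin tether also called LEDGF, fell (-0.30 ± 0.06, adjusted p = 0.0020), and MEN1, which encodes menin, was at 0.01 ± 0.09. Of the KMT2C and KMT2D partners the coactivator NCOA6 rose from 71.8 ± 2.6 to 102 ± 2 CPM (0.50 ± 0.06), the small adaptor PAGR1 fell (-0.26 ± 0.06), and the H3K27 demethylase KDM6A was at 0.01 ± 0.08. WDR82 no longer passed with library totals (-0.13), without antagonist library 1 (-0.19) or without antagonist library 3 (-0.20), and CXXC1 passed with library totals (0.21) and without IgG library 3 (0.21). BOD1L1 passed with library totals (0.23), DESeq2 size factors (0.17) or upper-quartile scaling (0.18) and without IgG library 1 (0.17). With length and GC trends removed HCFC1 was at 0.29, NCOA6 at 0.31, PSIP1 at -0.18 and BOD1L1 at 0.0091.

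Among the 6 genes for H3K4 demethylases and the cofactor RCOR1, 2 rose and 1 fell, all by small amounts. Over all tested genes 15.6% rose and 20.5% fell. KDM5C rose (0.19 ± 0.06), RCOR1, the corepressor that docks KDM1A on nucleosomes, rose (0.17 ± 0.06), and KDM1A itself fell (-0.22 ± 0.06), while KDM5B was at -0.0041 ± 0.0562 and was called lower with length and GC trends removed (-0.16). KDM5C turned to -0.021 in that setting and was not called without antagonist library 1 (0.16) or 3 (0.17), and KDM1A was not called with library totals (-0.14) or when IgG library 2 or antagonist library 2 or 3 was left out (each -0.20). RCOR1 was not called with no filter (0.16), with trends removed (0.10), or without IgG library 2 (0.16) or antagonist library 1, 2 or 3 (0.16 to 0.18).

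Of 7 genes for readers of the mark and coactivators 4 rose and 0 fell, where 15.6% of all tested genes rose, and the list's median change was 0.38 on the log2 scale. EP300, the enhancer acetyltransferase, rose from 74.4 ± 4.6 to 103 ± 1 CPM (0.47 ± 0.06, adjusted p = 0.0003 by edgeR) and its relative CREBBP rose by 0.40 ± 0.09. The H3K4me3 readers PHF8 (0.46 ± 0.07), a histone demethylase, and BPTF (0.38 ± 0.06), the NURF subunit, also rose. SPIN1 was at -0.11 ± 0.08 and the remodeller CHD1 at -0.03 ± 0.07, the latter turning to 0.045 with library totals and 0.055 without IgG library 1. With length and GC trends removed CREBBP was at 0.077 and not called, and EP300 was at 0.22, BPTF at 0.22 and PHF8 at 0.28.

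Of 20 other histone methyltransferase genes 7 rose, 1 fell and 12 did not pass (median 0.17), so 8 of 20 were called where 36.1% of all tested genes were. EZH1 (0.64 ± 0.08) and EZH2 (0.29 ± 0.08), the H3K27 methyltransferases, DOT1L (0.56 ± 0.10), which methylates H3K79, and ASH1L (0.32 ± 0.06) and NSD2 (0.25 ± 0.06), which methylate H3K36, rose. SMYD3 fell (-0.45 ± 0.08). Removing length and GC trends left DOT1L at 0.23, ASH1L at 0.14 and NSD2 at 0.11. Of 11 genes known to depend on KMT2A in leukaemia 0 passed in either direction, with a median of 0.06. Several were counted low with IgG, namely HOXA7 (1.16 CPM), FLT3 (2.84), MEF2C (5.39) and HOXA5 (6.16), so small changes in them could be missed. HOXA9 had 87.9 ± 7.3 and 97.2 CPM, MEIS1 181 ± 9 and 201 CPM, HOXA10 225 ± 10 and 224 CPM, MYB 416 ± 18 and 392 CPM and CDK6 216 ± 16 and 225 CPM with IgG and antagonist. With library totals HOXA9 (0.23) and MEIS1 (0.23) passed. MEIS1 also passed in 4 further settings (0.17 to 0.22), and CDK6 passed without IgG library 1 (0.14).

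**Figure D4:**
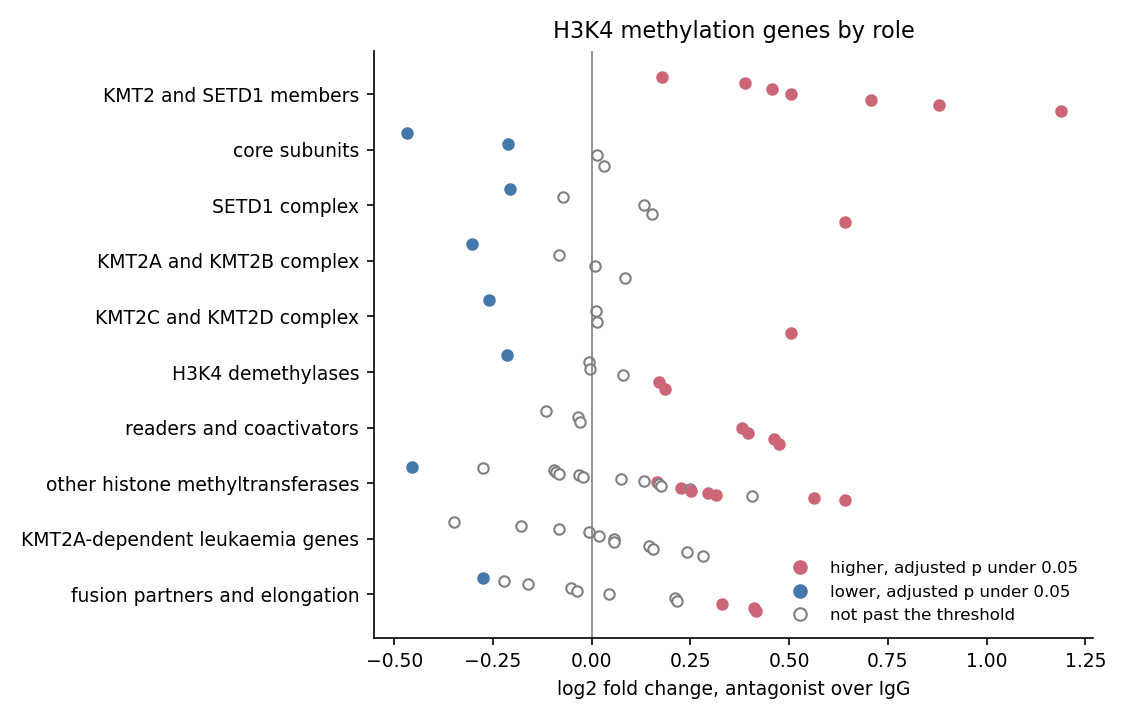
Log2 fold changes of antagonist over IgG for the 7 members and for the 9 lists of related genes, 1 point per tested gene, filled where the edgeR adjusted p was under 0.05. The members all lie to the right of 0, while the 4 core subunits have 2 genes lower and none higher and the 11 KMT2A-dependent genes have none past the threshold.

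In the agonist set only SETD1B could be examined, and it was lower with the antibody than with IgG. It had 425, 308 and 378 reads in the IgG libraries and 243, 266 and 237 with the agonist. On the scale of CPM of the listed genes these were 128, 110 and 119 with IgG and 71.0, 84.2 and 70.0 with the agonist, so that every agonist library lay below every IgG library. The log2 fold change was -0.67 ± 0.12. The agonist table holds genes that differ between these libraries, since 99.9% of its genes were called, 44.2% were called lower and 44.1% had agonist libraries all below IgG, so SETD1B's own call is no separate evidence. Levels of listed counts cannot be set beside the CPM of the antagonist set. The 6 other members could not be judged with the agonist.

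The antagonist effect on SETD1B minus the agonist effect was 1.55 ± 0.16 on the log2 scale, each set being scaled on its own. In both sets the zero point rests on scaling, and for the agonist it rests on selected genes only. With library totals the difference was 1.65, with DESeq2 size factors 1.66, and without any 1 library between 1.45 and 1.66. By the same chi-square, agonist library 1 was farther from its group (25.1 and 26.7) than the remaining pair was from each other (3.75), and without it the agonist change of SETD1B was -0.63. Of the 101 long genes listed for the agonist 79 were lower, and of the 10 with a GC content of at least 59% 5 were lower. With length and GC trends removed in that table SETD1B was at -0.58 with the agonist.

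**Figure D5:**
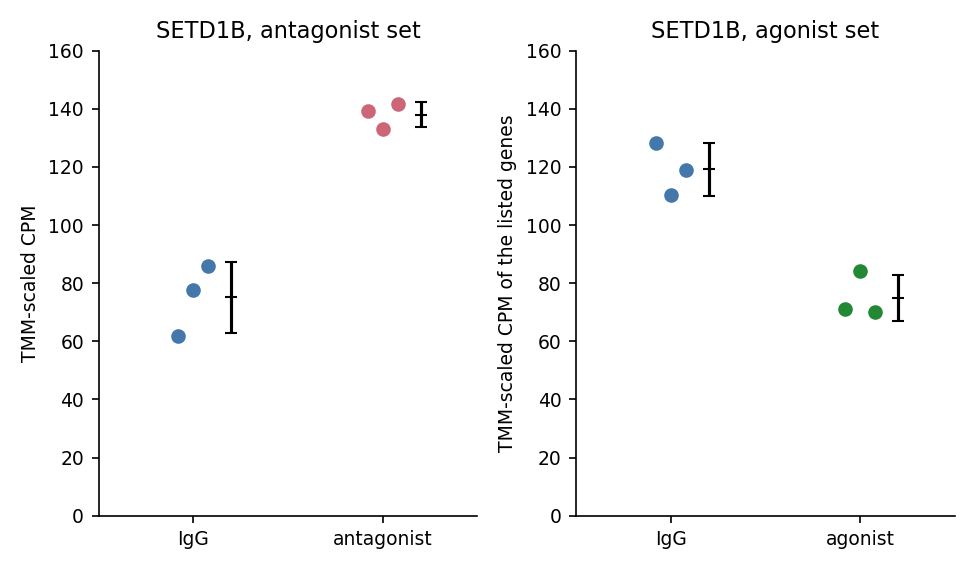
SETD1B in each library of the antagonist set (left, TMM-scaled CPM) and the agonist set (right, TMM-scaled CPM of the listed genes), 3 points per group with the mean ± SD beside them. The antagonist libraries (133 to 142) lie above their IgG controls and the agonist libraries (70.0 to 84.2) below theirs, and the axes of the panels are not comparable in level.

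Total counts ranged from 17142362 to 18820312 with IgG and from 17035334 to 17771980 with the antagonist, and counts of listed genes were between 2764479 and 3522203 in the agonist set. Of 9 markers of myeloid and U937 identity, none was at 0, and their summed level was 5894 to 6760 CPM with IgG and 5548 to 5931 CPM with the antagonist. MPO among them was near the floor, with 2 to 17 counts per library. The largest parts of the sum with IgG were CTSG (3236 CPM by library totals) and CEBPA (1626 CPM). The 4 markers of T and NK cells summed to at most 0.675 CPM and the 3 of erythroid cells to at most 0.171 CPM in any library. Of the 3 B cell markers, which summed to between 14.9 and 17.4 CPM, 1 was at 0, and the 4 markers of epithelial cells and fibroblasts summed to at most 2.08 CPM. The receptor gene LILRB3 itself had between 1 and 5 counts per library in the antagonist set.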

How the data were processed

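Each antibody set had 1 table of raw read counts per gene, deposited by the authors as whole numbers without normalization. Per the submitters' processing notes, HISAT2 and Cufflinks were used with build hg38. Tool versions, counting program, annotation and strand setting were all not given in the sources used here, so a gene and its antisense partner cannot be separated. The labels' protocols name Trizol with chloroform for extraction and, for library construction, a NEBNext Ultra DNA kit. CPM values are TMM-scaled unless said otherwise. Columns name the group only. Nothing states that libraries were separate cultures, and p-values then cover the spread of these libraries, which may be technical. No pair agreed within sampling noise. The 570 antagonist rows without a symbol (0.068% to 0.105% of counts) were left out.

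The tests used edgeR 4.0.16 (R 4.3.3): filterByExpr defaults, TMM scaling, robust quasi-likelihood test, Benjamini-Hochberg adjustment at 0.05 over all tested genes of a table. SE values come from the fold change and the F statistic. Antagonist and agonist effects were compared over 902 shared genes, which the agonist selection shapes, so no p is given for a difference. The code was tested on simulated data. Alternatives were library totals, DESeq2 size factors, upper quartile, no filter, DESeq2 1.42.0, each library left out, and spline offsets per library (5 degrees of freedom) on length and GC content, which 95.2% of tested genes had in GENCODE. RefSeq promoters matched 6 of 7 members. Members and lists were chosen with earlier results of these data known. Named genes are the members, up to 6 per list, the 5 nearest KMT2D, overlapping genes, and related genes listed for the agonist. Within a list the order was those that passed first by size of change, then the best counted. Some genes within that limit of 6 are not named, and none of them had passed. The related genes listed for the agonist were chosen after their values were seen. Some further results are not reported here.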

Additional observations from a re-analysis of the deposited data

Results flagged for a closer look

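SETD1B stood out because its change differed between the antibodies: every antagonist library was above its IgG controls and every agonist library below its own, a difference of 1.55 ± 0.16 on the log2 scale. No p is attached, since the gene was chosen with these contrasts in view.

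NSD2 and SUV39H1, related genes listed for the agonist and named after their values were seen, also differed between the antibodies. No p is given for them, since the agonist table holds genes selected for a difference with the agonist. NSD2 was at 0.25 ± 0.06 with the antagonist and at -0.29 ± 0.06 with the agonist, a difference of 0.54 ± 0.09 (0.47 to 0.58 without any 1 library). With length and GC trends removed its agonist value turned to 0.011 and its antagonist value was 0.11, so the opposite directions were not seen in that setting. SUV39H1, which encodes an H3K9 methyltransferase, was at -0.09 ± 0.06 with the antagonist and at -0.43 ± 0.07 with the agonist, a difference of 0.34 ± 0.09 (0.31 to 0.38 without any 1 library). In the same setting the values of SUV39H1 were -0.20 and -0.58. KDM1A, the other related gene listed for the agonist, fell with both antibodies, by -0.22 ± 0.06 with the antagonist and -0.32 ± 0.05 with the agonist. Its difference was 0.11 ± 0.08 (0.075 to 0.16 without any 1 library), and 0.20 with library totals and 0.22 with DESeq2 size factors. Over the 902 shared genes 56.5% differed between the antibodies at an edgeR adjusted p under 0.05.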

How the results depend on the processing

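No paired analysis was possible because the columns of both tables carry no replicate numbers. All 7 members kept a positive antagonist log2 fold change under all 12 other settings. The number called was 7 under each scaling and DESeq2, 6 with no filter and 5 with length and GC trends removed, and 6 to 7 when 1 library was left out. All settings used the values on which the family was selected, so this stability is no separate evidence of a rise. KMT2D was between 1.14 and 1.25 without any 1 library and 0.72 with those trends removed, the only setting that moved it by more than the spread of replicates. SETD1B with the agonist was between -0.76 and -0.61 without any 1 library. Removal of the trends in the agonist table, where it turned NSD2 to 0.011, was added after the data were seen. Of the 23 partners, 2 were called higher and 7 lower with those trends removed and 6 higher and 3 lower with library totals, and without any 1 library 2 to 5 were higher, 3 to 6 lower and 5 to 11 called in all, with 6 called without antagonist library 1 and 5 without antagonist library 3. The cause was not tested. Signs turned for genes near 0. With library totals, DESeq2 size factors, upper quartile and the DESeq2 test in turn, KDM5B was at 0.077, 0.015, 0.023 and 0.015 and HOXA10 at 0.073, 0.012, 0.019 and 0.012, and CHD1 was at 0.045 with library totals. With those trends removed WDR5 was at -0.060, CXXC1 at -0.0037, MEN1 at -0.13, KDM6A at -0.025, KDM5C at -0.021 and CDK6 at -0.038, and MEN1 was at -5.8e-05 with no filter. Without any 1 library WDR5 ranged from -0.027 to 0.067, RBBP5 from -0.055 to 0.14, MEN1 from -0.063 to 0.097, KDM6A from -0.049 to 0.054, KDM5B from -0.037 to 0.021, CHD1 from -0.073 to 0.055 and HOXA10 from -0.040 to 0.040.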

Other observations

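Of 11 genes for fusion partners of KMT2A and for transcription elongation, 3 rose with the antagonist, 1 fell and 7 did not pass, so 4 of 11 were called where 36.1% of all tested genes were, and their median log2 fold change was 0.04. AFF1, a scaffold of the super elongation complex and a frequent KMT2A fusion partner, went from 49.1 ± 1.0 to 65.2 CPM (0.41 ± 0.06, edgeR adjusted p = 0.0005). MLLT6 (0.42 ± 0.07) and the elongation factor ELL (0.33 ± 0.09) rose, and CTR9, a subunit of the PAF1 complex, fell (-0.27 ± 0.06). ELL no longer passed without antagonist library 1 (0.31) or antagonist library 3 (0.29), and with length and GC trends removed AFF1 was at 0.25, MLLT6 at 0.12 and ELL at 0.14.

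KMT2E-AS1, an antisense gene that overlaps 143 bases of the exons of KMT2E, had 227, 203 and 154 reads with IgG and 325, 334 and 320 with the antagonist. Its log2 fold change was 0.69 ± 0.11 (edgeR adjusted p = 0.00075), beside 0.18 ± 0.06 for KMT2E. The use of strand in counting is not given in the sources used here, so reads of the shared bases cannot be told apart.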
